A study of Mus musculus with 6 samples.

Results

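The genes described here encode the machinery that moves vesicles and membrane between the compartments of a cell. They were chosen by symbol alone: Rab and Arf GTPases, TBC domain proteins, coat and adaptor subunits, sorting nexins, Vps and Sec proteins, syntaxins, VAMPs, synaptotagmin-like proteins and tethers. The pattern found 57 of the 4162 genes in the deposited count table. Of these, 56 are protein-coding and 1, Rab11fip4os1, is a non-coding transcript on the strand opposite to Rab11fip4. In the GENCODE annotation the pattern matches 322 protein-coding genes, so that the table held 17.4% of them, and the others were not analysed here.

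CD4+ T cells from the spleen were compared by bulk RNA sequencing, with 3 mice labelled B6.WT and 3 labelled B6.UTX TCD. The latter are labelled as mice whose T cells lack UTX, a histone demethylase that acts on H3K27 and whose gene is Kdm6a. The driver of the deletion, the deleted exons and the age and sex of the mice are not stated in the labels. Naive cells of both genotypes were isolated magnetically and stimulated for 48 h with anti-CD3 bound to plastic and dissolved anti-CD28, and no unstimulated cells were compared. The question is which genes differ when T cells lack UTX.

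Vesicles bud from a donor membrane under a protein coat, are captured near the target by tethers and fuse through SNARE proteins. Rab and Arf GTPases mark each membrane and recruit these proteins in their GTP-bound state, and GAPs, among them many TBC domain proteins, switch them off. In T cells this traffic recycles antigen receptors to the contact with the antigen-presenting cell, secretes cytokines and releases cytotoxic granules.

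The values are CPM, the counts of a gene in every 1000000 counts of listed genes after TMM scaling between libraries, given as mean ± SD of 3 mice. A log2 fold change is UTX TCD over WT with its standard error, and a gene is called at an adjusted p under 0.05 in edgeR's quasi-likelihood test. Column totals were 8363326 to 10288306 counts, and the trafficking genes took 1.05% to 1.08% of them in WT and 0.98% to 1.03% in UTX TCD libraries. Kdm6a was at 281 to 286 CPM in WT and 179 to 207 CPM in UTX TCD libraries, so transcripts remained in every UTX TCD library and the groups did not overlap. With the deleted exons unknown, this count over the whole gene does not check the deletion. Of 14 T cell markers 4 were listed, with summed levels of 3509 to 3842 CPM in WT and 2952 to 3681 CPM in UTX TCD libraries, and the other 10 were not analysed here. The sum holds opposite changes. Thy1 fell from 809 ± 85.1 to 56.8 ± 18.3 CPM and Lat from 819 ± 17.9 to 604 ± 43.2 CPM, Cd2 rose from 553 ± 59.4 to 1186 ± 424 CPM, and Lck did not pass (-0.13 ± 0.07). Markers of other cells were listed in small numbers: 1 of 2 for CD8 T cells (Cd8b1, 11.6 to 14.5 CPM in WT and 31.5 to 56.2 in UTX TCD), 2 of 6 for NK cells (summed 23 to 59.4 and 25.7 to 53.5), 2 of 10 for B cells (446 to 548 and 480 to 774), 1 of 15 for myeloid cells (10.6 to 16.7 and 12.9 to 24.9) and 1 of 8 for stroma and endothelium (Pecam1, 113 to 138 and 206 to 369). Of these genes Cd8b1, Pecam1 and Klrd1 (NK list, 1.40 ± 0.37 to 3.69 ± 0.82 CPM) were called higher and Igkc (B cell list, 19.6 ± 4.48 to 10.9 ± 3.85 CPM) lower. The calls of Klrd1 and Igkc did not hold with each library left out. None of the 7 dendritic or 9 erythroid and platelet markers was listed. The part of other cells in the results below was not tested. In bulk RNA, fewer cells with a transcript and less of it in each cell cannot be told apart. The table shows selection of its genes by the difference between genotypes, since 20 of 4118 tested genes lay within 0.1 of a log2 fold change of 0, and counts of calls are to be read against the shares called among all tested genes.

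The start regions of the trafficking genes were read for the core of the hypoxia response element (ACGTG, either strand), because the series' title concerns hypoxia sensing. The windows of 3 genes are shown, those of genes whose calls held with each library left out and whose 250 bases before the RefSeq start lie outside the annotated gene and are followed by an annotated transcript start: Vamp4 (GRCm38.p6, chr1:162570265-162570514, plus strand), Tbc1d24 (chr17:24205563-24205812, minus strand) and Snx33 (chr9:56928372-56928621, minus strand). They run 5′ to 3′ and capitals mark the core, which in both matches is read on both strands as CACGTG. Vamp4 and Tbc1d24 each have another RefSeq window, inside the annotated gene and without the core, which is not shown.
Vamp4: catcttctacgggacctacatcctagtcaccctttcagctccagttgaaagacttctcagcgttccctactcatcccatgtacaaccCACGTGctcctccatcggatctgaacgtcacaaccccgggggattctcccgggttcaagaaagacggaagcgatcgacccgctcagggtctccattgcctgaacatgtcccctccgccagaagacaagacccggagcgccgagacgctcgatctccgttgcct
Tbc1d24: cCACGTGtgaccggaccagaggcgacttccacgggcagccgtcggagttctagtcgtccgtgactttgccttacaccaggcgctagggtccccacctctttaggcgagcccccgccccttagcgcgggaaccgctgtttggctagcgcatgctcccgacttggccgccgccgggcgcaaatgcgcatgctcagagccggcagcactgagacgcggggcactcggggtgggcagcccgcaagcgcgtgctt
Snx33: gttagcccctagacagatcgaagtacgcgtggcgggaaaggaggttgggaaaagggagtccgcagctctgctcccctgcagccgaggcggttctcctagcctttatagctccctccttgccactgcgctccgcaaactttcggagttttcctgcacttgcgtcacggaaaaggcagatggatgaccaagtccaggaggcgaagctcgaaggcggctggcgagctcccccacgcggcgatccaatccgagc
RefSeq windows matched 43 of the 57 genes. ACGTG was present for 13 of them (30.2%) and for 18.5% of the 27025 genes with a window. It was present for 6 of 20 genes called higher, 3 of 8 called lower and 4 of 15 not called. CACGTG, which is also the core of the lysosomal CLEAR element and always holds ACGTG, was present for 9 of 43 (20.9%) and for 6.86% of all. CCGGAAG, the ETS core, was present for 9 of 43 and 7.83% of all. It was present for 1 of 20 genes called higher, 4 of 8 called lower and 4 of 15 not called. A gene counted as a match if any of its windows held the letters, and the 43 genes had 52 windows. The 27025 genes are all those with a window, listed in the count table or not. Shares among the tested genes were not taken, and no difference between shares was tested. A match describes letters in a window and is not a site.

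Across the 57 genes, 25 were called higher in UTX TCD cells, 15 lower, and 17 did not pass. The 40 called genes are 70.2% of the set, beside 68.1% of all 4118 tested genes. The 25 higher genes are 43.9%, where 41.1% of all tested genes were called higher, and the 15 lower genes are 26.3%, where 27% of all were called lower. Both shares are near those of the table, so these counts are not a result about the trafficking genes. The median log2 fold change was -0.14 over the 57 genes and -0.15 over all tested genes. Changes of at least 2-fold were called higher for 4 genes, 7.02% of the set beside 12.9% of all tested genes, and lower for 3, 5.26% beside 6.63%. In 47 of the 57 genes (82.5%) the groups did not overlap, beside 85.8% of all tested genes. No gene had a log2 fold change between -0.11 (Arcn1) and 0.33 (Stx5a).

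**Figure D1:**
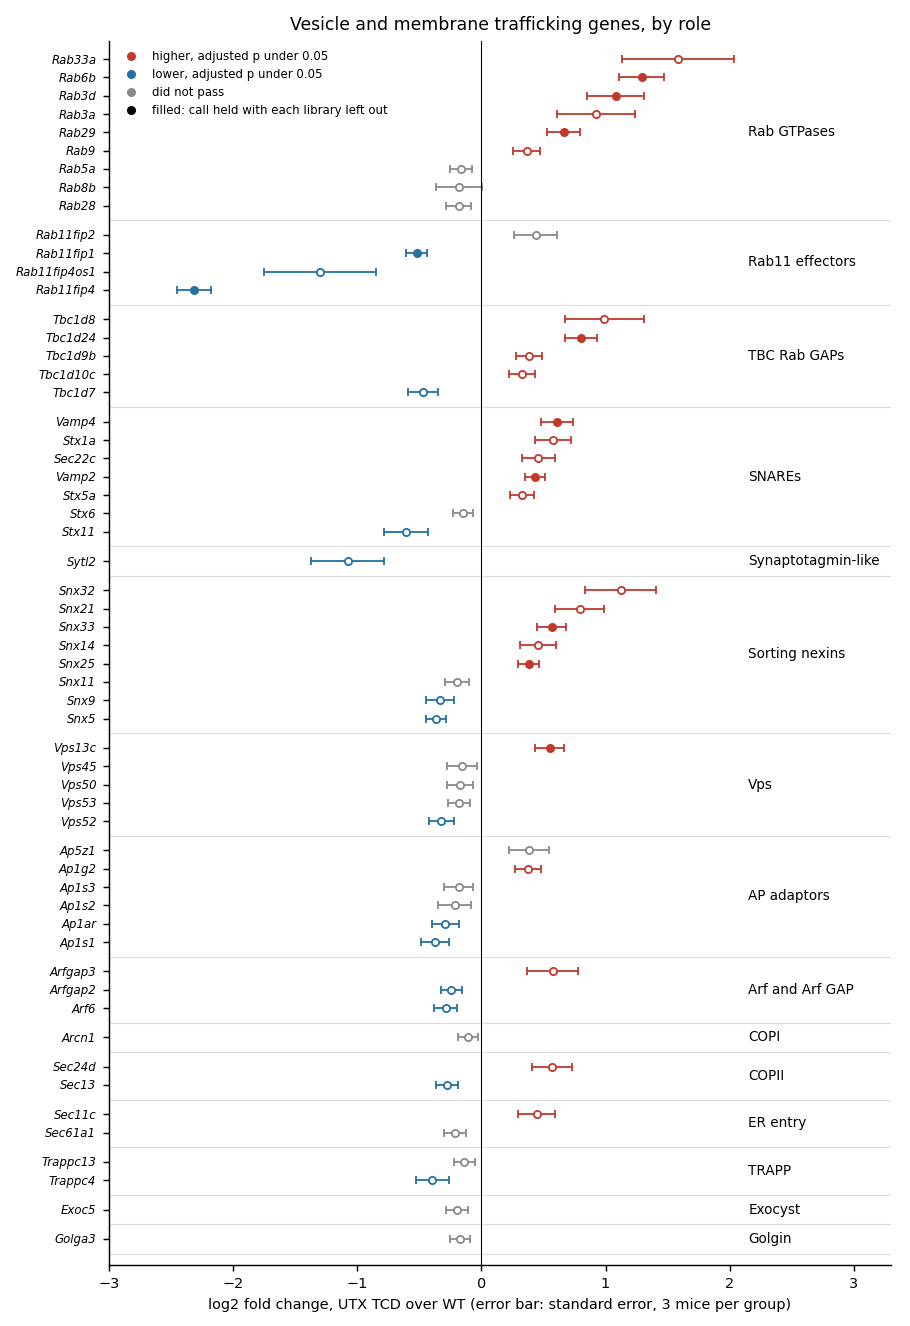
Log2 fold change (UTX TCD over WT) of the 57 trafficking genes by role, with standard errors from edgeR over 3 mice per group; filled points are calls that held with each library left out. The Rab GTPases called are all higher, while Rab11fip4 lies at -2.32.

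Many calls were lost when 1 library was left out, 29 of the 40 without at least 1 WT library and 9 without at least 1 UTX TCD library. Each such fit also had fewer mice, and whether that or the library itself cost a call was not tested. Among genes whose call was lost without any 1 WT library, the log2 fold change of Ap1s1 stayed at -0.38 to -0.37 in these fits. That of Rab33a ranged from 1.26 to 1.79. Without WT replicate 1, 9 genes were called higher and 4 lower, without WT replicate 2 the counts were 9 and 3, and without WT replicate 3 they were 18 and 5. Those are 15.8% and 7.02%, 15.8% and 5.26%, and 31.6% and 8.77% of the set. The whole table fell with them, to 19.6% higher and 9.62% lower, 17.7% and 8.52%, and 28.8% and 13.1% of all tested genes, so these counts too are near the shares of the table. Without UTX TCD replicates 1, 2 and 3 the counts were 27 and 18, 22 and 18, and 22 and 14, beside 44% and 34.4%, 38.9% and 35.2%, and 35.9% and 22.4% of all. UTX TCD replicate 2 stood farthest from WT in 34 of the 40 called genes, 22 of the 25 higher and 12 of the 15 lower. Over the whole table, too, this library differed most from the WT libraries, with a chi-square per degree of freedom of 213 to 261. For UTX TCD replicate 1 it was 64.1 to 79.9 and for replicate 3 84.3 to 120. The share among all called genes was not counted, so this is not a result about the trafficking genes. The calls of 11 genes (19.3%) held with each library left out in turn, beside 24.1% of all tested genes. They are Rab6b, Rab3d, Rab29, Tbc1d24, Vamp4, Vamp2, Snx33, Snx25 and Vps13c, all higher, and Rab11fip4 and Rab11fip1, both lower. The same 11 were also called in each of the other settings tried. With gap-centred scaling, which moves the emptiest point of the fold changes to 0, 25 genes were higher and 24 lower, beside 37.8% and 44.1% of all tested genes.

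**Figure D2:**
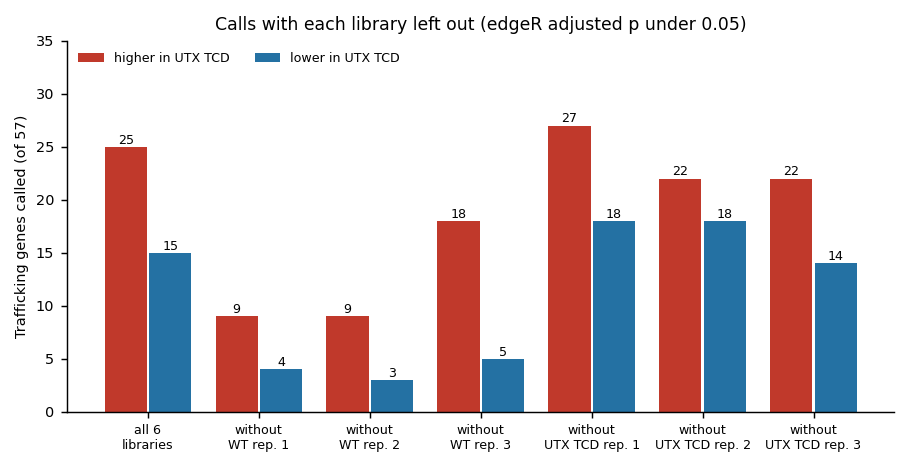
Number of the 57 trafficking genes called higher or lower in UTX TCD cells with all 6 libraries and with each library left out (edgeR adjusted p under 0.05). The bars are shortest without WT replicate 1 (9 higher, 4 lower) and WT replicate 2 (9 and 3).

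**Figure D3:**
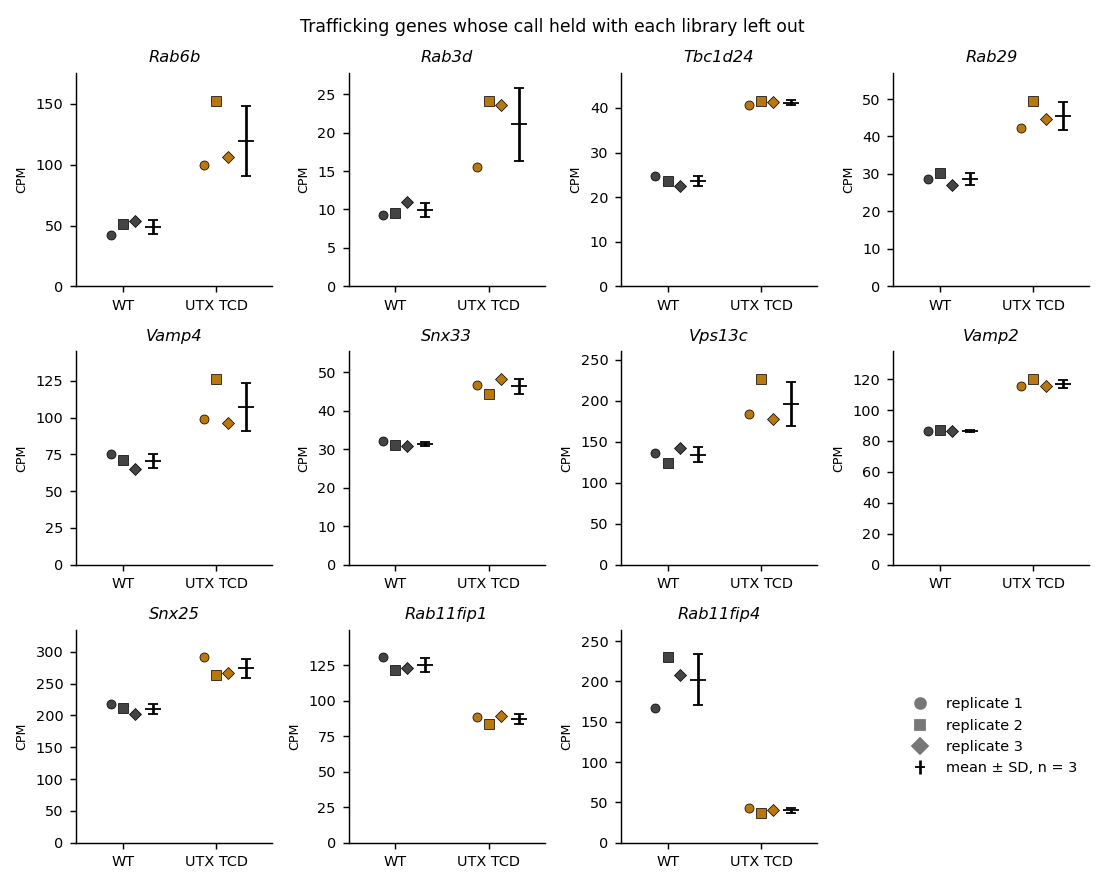
CPM in each library for the 11 genes whose call held with each library left out; symbols mark replicates 1 to 3, bars show mean ± SD, and axes start at 0. The groups do not overlap in any panel, and Rab11fip4 falls from 168 to 229.8 CPM in WT to 37.3 to 43.4 CPM in UTX TCD libraries.

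Among the Rab GTPases, 6 of 9 genes were called higher and none lower, with a median log2 fold change of 0.66. The counts of this and the following small groups stand beside 41.1% higher and 27% lower, with a median of -0.15, among all tested genes. With gap-centred scaling 2 of them, Rab5a and Rab28, were called lower. Rab6b, the Rab6 isoform known from neurons that acts in traffic at the Golgi, was at 42.0, 51.3 and 53.4 CPM in the 3 WT libraries and 100.02, 152 and 106 CPM in the 3 UTX TCD libraries. Every UTX TCD library was above every WT library, and replicate 2 was highest. The change was 2.45-fold (log2 fold change 1.29 ± 0.18, edgeR adjusted p = 0.0025). The gene (ENSMUSG00000032549) lies on chromosome 9 from 103111787 to 103185276.

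Rab3d and Rab3a belong to the Rab3 subfamily, which acts in regulated secretion. Rab3d was at 9.31, 9.54 and 11 CPM in WT and 15.5, 24.1 and 23.5 CPM in UTX TCD libraries, 2.12-fold higher (1.08 ± 0.23, edgeR adjusted p = 0.0082). The 3 UTX TCD values lay above the WT range, with replicate 1 lowest. Rab3a rose from 4.0 ± 1.09 to 7.58 ± 1.81 CPM (0.92 ± 0.31). Rab29, a Golgi and lysosome Rab that takes part in T cell receptor recycling, was at 28.7, 30.3 and 27.0 CPM in WT and 42.2, 49.5 and 44.6 CPM in UTX TCD libraries (0.66 ± 0.13, edgeR adjusted p = 0.0067). Its groups were apart by more than the spread within either. Rab3d is on chromosome 9 from 21907491 to 21918192 and Rab29 on chromosome 1 from 131867224 to 131872887.

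Rab33a, a Golgi Rab on chromosome X, had the highest fold change of the set and few reads, 15, 14 and 5 counts in WT and 32, 43 and 24 counts in UTX TCD libraries (1.59 ± 0.45). Rab9, also X-linked, which returns cargo from late endosomes to the Golgi, rose from 59.2 ± 1.30 to 76.2 ± 7.65 CPM (0.37 ± 0.11). Rab8b, which acts in transport to the plasma membrane, was the most abundant Rab of the set, also per length. It was at 1459, 1223 and 1109 CPM in WT and 1432, 1014 and 901 CPM in UTX TCD libraries, and the groups overlapped (-0.18 ± 0.18, edgeR adjusted p = 0.36), and it passed as lower only without UTX TCD replicate 1 among the settings tried. Rab5a, the GTPase of early endosomes, was at 180 ± 11 and 161 ± 11.3 CPM (-0.16 ± 0.09), and Rab28 was at -0.18 ± 0.10. The calls of Rab33a and Rab9 were lost without any 1 WT library, and that of Rab3a without WT replicate 1, WT replicate 2 or UTX TCD replicate 2. Without WT replicate 1 or 2 the group had 3 higher members, and 1 lower member, Rab5a, without UTX TCD replicate 2.

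Of 4 genes named after Rab11 effectors, 3 were called lower. Rab11 marks the recycling endosome, from which its FIP partners return receptors to the surface. Rab11fip4 was at 168, 229.8 and 209 CPM in WT and 43.4, 37.3 and 40.8 CPM in UTX TCD libraries. The lowest WT value was well above the highest UTX TCD value. The fall was 4.99-fold (log2 fold change -2.32 ± 0.14, edgeR adjusted p = 1.9e-04), the steepest in the set. The gene (ENSMUSG00000017639) lies on chromosome 11 from 79591212 to 79698023 on the plus strand. Rab11fip4os1 lies inside it on the minus strand, from 79607079 to 79623163, and shares no exon base with it. It had 15, 14 and 12 counts in WT and 4, 8 and 4 counts in UTX TCD libraries (-1.30 ± 0.45). If the counting ignored strand, reads of Rab11fip4 introns and of Rab11fip4os1 cannot be told apart.

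Rab11fip1, also called Rab coupling protein, was at 130.4, 122 and 123 CPM in WT and 88.6, 83.4 and 89.3 CPM in UTX TCD libraries. Each group was tight, and the groups lay apart (-0.52 ± 0.08, edgeR adjusted p = 0.0036). It lies on chromosome 8 from 27138773 to 27174646. Rab11fip2, the third family member listed, was at 25.4 ± 2.65 and 34.3 ± 5.32 CPM (0.44 ± 0.17, edgeR adjusted p = 0.052). Its value was above 0, and it passed as higher with RLE or upper-quartile scaling, DESeq2, limma-voom and without UTX TCD replicate 1. The call of Rab11fip4os1 was lost without any 1 WT library, without UTX TCD replicate 1 or 3 and with DESeq2.

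Of the genes for TBC domain proteins 4 of 5 were called higher and 1 lower (median 0.38). Tbc1d24, a TBC protein known from neurons, was at 24.7, 23.5 and 22.5 CPM in WT and 40.6, 41.5 and 41.4 CPM in UTX TCD libraries. The UTX TCD libraries were within 1 CPM of each other, far above WT (0.80 ± 0.13, edgeR adjusted p = 0.0034). It lies on chromosome 17 from 24175431 to 24205562. Its window above holds CACGTG, which contains the hypoxia core and is also the CLEAR core, near its far end. Tbc1d10c, or carabin, an inhibitor of calcineurin and Ras signalling in T cells, rose from 185 ± 15 to 233 ± 22.1 CPM (0.33 ± 0.10). Tbc1d9b was at 0.38 ± 0.10 and Tbc1d8 at 0.99 ± 0.32. Tbc1d7 went the other way, from 43.6 ± 1.24 to 31.4 ± 0.65 CPM (-0.47 ± 0.12, edgeR adjusted p = 0.014). It encodes the third subunit of the TSC complex that restrains mTORC1. The calls of Tbc1d7 and Tbc1d9b were lost without WT replicate 1 or 2, that of Tbc1d10c also without UTX TCD replicate 3, and that of Tbc1d8 without any 1 WT library or UTX TCD replicate 2. Without WT replicate 1 or 2 the group had 1 higher and no lower member. Exons of Tbc1d8 overlap those of the ribosomal gene Rpl31 on the other strand. Across the 57 trafficking genes, 17 had exon overlap with a gene on the other strand and 5 on the same strand. Only some of these overlaps are named here.

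By symbol, 7 genes were grouped as SNAREs, the proteins that pull membranes together for fusion. Of these, 5 were called higher and 1 lower (median 0.43). Vamp2, a vesicle SNARE of regulated secretion, was at 86.2, 87.1 and 86.3 CPM in WT and 116, 120.0 and 115 CPM in UTX TCD libraries. Both groups were tight, with no overlap (0.43 ± 0.08, edgeR adjusted p = 0.0052). Vamp4, a SNARE of the trans-Golgi network, was at 75.1, 70.8 and 65.3 CPM in WT and 98.9, 126 and 96.5 CPM in UTX TCD libraries (0.61 ± 0.13, edgeR adjusted p = 0.0083). Replicate 2 was the highest of the 3, and all of them were above WT. Vamp2 lies on chromosome 11 from 69088490 to 69092384 and Vamp4 on chromosome 1 from 162570515 to 162599084. Stx1a, the plasma membrane syntaxin of nerve terminals, rose from 22.5 ± 2.07 to 33.5 ± 1.98 CPM (0.58 ± 0.15). Sec22c and Stx5a, genes of the early secretory pathway, were higher at 0.46 ± 0.14 and 0.33 ± 0.10.

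Stx11, a syntaxin needed for granule release by cytotoxic lymphocytes, was the SNARE gene called lower. It was at 214, 203 and 164 CPM in WT and 123, 159 and 100.3 CPM in UTX TCD libraries. The lowest WT and the highest UTX TCD value were close (-0.60 ± 0.18, edgeR adjusted p = 0.022). Sytl2, a Rab27 effector that docks secretory granules, fell from 13.3 ± 1.83 to 6.30 ± 2.04 CPM (-1.08 ± 0.29, edgeR adjusted p = 0.018), and its groups were apart. Stx6, a syntaxin of the trans-Golgi network and endosomes, was at 304 ± 14.6 and 274 ± 13.6 CPM (-0.15 ± 0.08) and did not pass, except as lower with gap-centred scaling. The calls of Stx11, Stx1a and Stx5a were lost without WT replicate 1 or 2, that of Sytl2 without WT replicate 1 or 3, and that of Sec22c without any 1 WT library or UTX TCD replicate 3. Without WT replicate 1 or 2 the SNAREs had 2 higher and no lower member.

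Of the sorting nexins, which bind phosphoinositides on endosomes and shape or sort cargo there, 5 of 8 were called higher and 2 lower (median 0.42). Snx33 was at 32, 31.1 and 30.8 CPM in WT and 46.6, 44.2 and 48.1 CPM in UTX TCD libraries. The spread within groups was small beside the gap between them (0.57 ± 0.12, edgeR adjusted p = 0.0080). Snx9, of the same SH3 and BAR domain subfamily that works with dynamin in endocytosis, fell from 367 ± 43.6 to 291 ± 22 CPM (-0.33 ± 0.11). The difference between these 2 relatives was not tested. Snx25, of the RGS domain subfamily, was at 218, 212 and 202 CPM in WT and 291, 264 and 267 CPM in UTX TCD libraries (0.38 ± 0.08, edgeR adjusted p = 0.0086). Its relative Snx14 rose from 46.8 ± 3.80 to 64.2 ± 10.3 CPM (0.46 ± 0.14).

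Snx5, a BAR domain nexin that retrieves receptors from endosomes, was among the 3 most abundant genes of the set per length. It was at 1168, 1184 and 1123 CPM in WT and 948, 840.5 and 914 CPM in UTX TCD libraries, with all UTX TCD libraries below WT (-0.36 ± 0.08, edgeR adjusted p = 0.0096). Its relative Snx32 rose from 3.56 ± 0.59 to 7.76 ± 1.68 CPM (1.12 ± 0.28), and Snx21 from 9.20 ± 0.65 to 15.9 ± 1.63 CPM (0.79 ± 0.20). Snx32 exons overlap those of Cfl1, an abundant actin regulator, on the other strand, and those of Snx25 overlap Cfap97. Snx11 did not pass (-0.20 ± 0.10), except as lower with gap-centred scaling. The calls of Snx32, Snx21 and Snx14 were lost without WT replicate 1 or 2, that of Snx5 without WT replicate 2, and that of Snx9 without WT replicate 2 or 3, without UTX TCD replicate 1 and with RLE or upper-quartile scaling. The nexins had 2 higher members without WT replicate 1 or 2, no lower member without WT replicate 2, and 1 lower without WT replicate 3 or UTX TCD replicate 1.

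Of the 5 Vps genes, 1 was called higher, 1 lower and 3 did not pass (median -0.17). Vps13c, a lipid transfer protein between the endoplasmic reticulum and late endosomes, was at 136, 124 and 142 CPM in WT and 184, 226 and 177 CPM in UTX TCD libraries. All 3 were above the WT range (0.55 ± 0.12, edgeR adjusted p = 0.0080). It lies on chromosome 9 from 67840396 to 67995638. Vps52 and Vps53, subunits of the GARP tether that receives endosomal vesicles at the Golgi, were at -0.32 ± 0.10 (called) and -0.18 ± 0.09 (not passed). Vps50, which takes the place of a GARP subunit in the related EARP complex, was at -0.17 ± 0.10, and Vps45, a partner of syntaxins, at -0.16 ± 0.12. The call of Vps52 was lost without any 1 WT library and with upper-quartile scaling, without UTX TCD replicate 1 the group had 3 lower members, and with gap-centred scaling Vps53 passed as lower. Vps52 exons overlap those of Rps18 on the other strand.

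Of 6 genes matching the clathrin adaptor pattern, 1 was called higher and 2 lower (median -0.20). AP-1 sorts cargo between the trans-Golgi network and endosomes, and its small sigma chain exists in several forms. Ap1s1 fell from 236 ± 1.89 to 182 ± 25.5 CPM (-0.37 ± 0.11, edgeR adjusted p = 0.023). Ap1s2 and Ap1s3 had values of -0.22 ± 0.13 and -0.18 ± 0.12 and did not pass. The gamma chain gene Ap1g2 rose from 130 ± 13.2 to 168 ± 13.8 CPM (0.37 ± 0.11). Ap1ar, which is a regulator of AP-1 and not a subunit, was called lower at -0.29 ± 0.11, and Ap5z1 of AP-5 did not pass at 0.38 ± 0.16. The calls of Ap1s1 and Ap1ar were lost without any 1 WT library, that of Ap1ar also with RLE or upper-quartile scaling and DESeq2, and that of Ap1g2 without WT replicate 1 or 2. The group had no call without WT replicate 1 or 2, no lower member without WT replicate 3, and 2 higher and 3 lower without UTX TCD replicate 1. Ap5z1 passed as higher with upper-quartile scaling, DESeq2, limma-voom and without UTX TCD replicate 1.

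Arf6, the Arf GTPase of the plasma membrane and recycling endosomes, was the most abundant gene of the set per length, at 485 CPM per kb of exon in WT and 398 in UTX TCD cells. It was at 743, 749 and 742 CPM in WT and 646, 541 and 642 CPM in UTX TCD libraries. The WT libraries were close to each other, and all UTX TCD libraries lay below them (-0.29 ± 0.09, edgeR adjusted p = 0.027). The GAPs of Arf1 at the Golgi split. Arfgap2 fell from 139 ± 2.99 to 118 ± 8.74 CPM (-0.24 ± 0.09) and Arfgap3 rose from 16.2 ± 2.21 to 24 ± 4.27 CPM (0.57 ± 0.20). All these calls were lost without any 1 WT library, and that of Arfgap3 also without UTX TCD replicate 2. The Arfgap2 call was lost without UTX TCD replicate 1, with RLE scaling and DESeq2, and with upper-quartile scaling, where Arf6 also lost its call.

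Genes of coats and of entry into the endoplasmic reticulum went in both directions. Arcn1, the delta subunit of the COPI coat, did not pass (751 ± 17.6 and 698 ± 40.5 CPM, -0.11 ± 0.08). In COPII, the coat that leaves the endoplasmic reticulum, the cargo-binding Sec24d rose from 19.1 ± 1.83 to 28.4 ± 2.74 CPM (0.57 ± 0.16) and Sec13, a cage protein that is also part of the nuclear pore, fell from 411 ± 6.64 to 339 ± 29.99 CPM (-0.28 ± 0.09). Sec11c, a signal peptidase subunit, was at 170 ± 5.20 and 231 ± 49.3 CPM and was called higher (0.45 ± 0.15). Without UTX TCD replicate 2, at 284 CPM, its value was 0.26. Sec61a1, the channel of the translocon, was at 741 ± 19.3 and 640 ± 56.3 CPM, with no overlap, and did not pass (-0.21 ± 0.09, edgeR adjusted p = 0.061). The calls of Sec24d, Sec13 and Sec11c were lost without any 1 WT library, that of Sec11c without UTX TCD replicate 3 and that of Sec13 with upper-quartile scaling. With gap-centred scaling Sec61a1 passed as lower, as it did without UTX TCD replicate 1 or 2.

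Of the 4 TRAPP, exocyst and golgin genes, 1 was called lower and none higher. Trappc4, a core subunit of the TRAPP tether, fell from 145 ± 4.26 to 110 ± 19.1 CPM (-0.40 ± 0.13, edgeR adjusted p = 0.031), and Trappc13 had -0.14 ± 0.08. Exoc5, a subunit of the exocyst at the plasma membrane, had -0.20 ± 0.09, and Golga3, a golgin, had -0.17 ± 0.08, both without overlap between groups and neither called. The Trappc4 call was lost without any 1 WT library and with upper-quartile scaling, and its exons overlap those of Rps25 on the other strand. Exoc5, Golga3 and Trappc13 passed as lower with gap-centred scaling, Exoc5 without UTX TCD replicate 1 and Golga3 without UTX TCD replicate 2.

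Genes called higher had lower levels, by their medians, than genes called lower. The median level over the 6 libraries was 10.1 CPM per kb of exon among the 25 higher genes, 38.1 among the 15 lower genes and 22.1 among the 17 others. Among all tested genes the medians were 12.3 for higher, 33.2 for lower and 38.6 for uncalled genes, so that there the uncalled genes had the highest median. Of 19 trafficking genes below 10 CPM per kb, 12 were called higher and 4 lower, beside 58.7% and 23.1% of all tested genes at that level. At 50 CPM per kb or more, 2 of 12 were called higher and 7 lower, beside 22.9% and 32.9% of all.

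**Figure D4:**
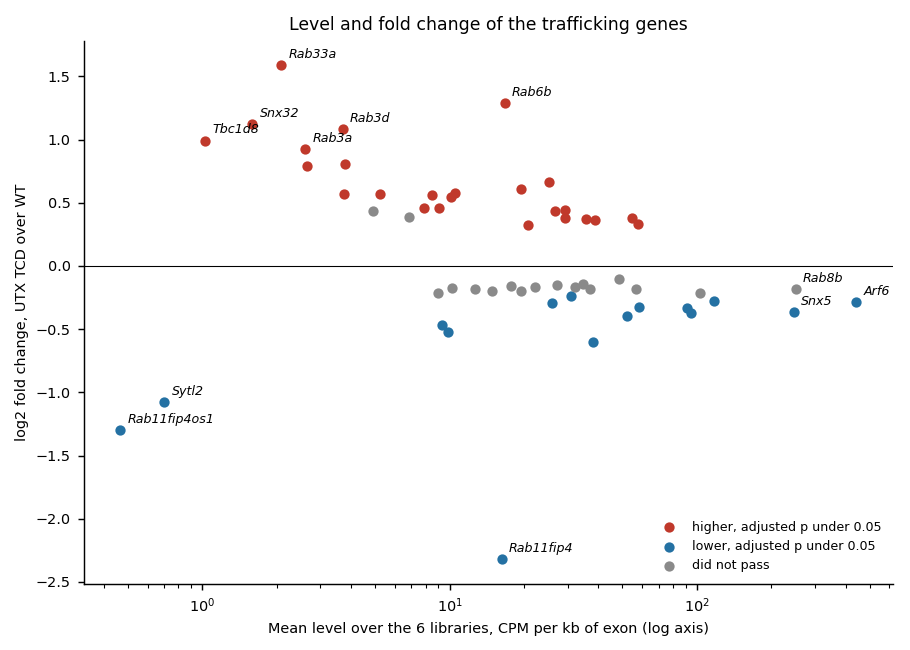
Log2 fold change (UTX TCD over WT) against the mean level over the 6 libraries in CPM per kb of exon (log axis) for the 57 trafficking genes, coloured by call. Arf6, Rab8b and Snx5 are at the right with values from -0.36 to -0.18, and the rises above 0.9 are at the left apart from Rab6b.

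Other genes of these pathways, from 7 lists drawn up by role, gave 76 tested genes of 297, with 30 called higher (39.5%) and 22 lower (28.9%), near the 41.1% and 27% of all tested genes, beside which the counts of each list stand too. Of 15 genes for other Rab regulators, 9 were called higher and 3 lower (median 0.39), among them Dennd6a, a Rab exchange factor gene, at 0.43 ± 0.08 and Micall2, a Rab effector gene, at 2.57 ± 0.60, from 0.69 ± 0.39 to 4.11 ± 2.49 CPM. The Micall2 call was lost when all annotated protein-coding genes counted as tests. Of 15 lysosome genes, 10 were called higher and 2 lower (median 0.38). Hexa, a subunit of a lysosomal hexosaminidase, rose from 57.3 ± 5.20 to 87.8 ± 6.27 CPM and Tpp1, a lysosomal peptidase, from 116 ± 3.29 to 165 ± 16 CPM. The lysosomal channel gene Mcoln2 fell from 14.4 ± 1.67 to 2.85 ± 1.43 CPM (-2.32 ± 0.38, edgeR adjusted p = 0.0038). Its relative Mcoln1 went the other way, from 52.6 ± 1.93 to 65.3 ± 5.35 CPM (0.31 ± 0.11, edgeR adjusted p = 0.037). The Mcoln1 call was lost without any 1 WT library or UTX TCD replicate 3.

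Of 8 genes of clathrin and endocytosis, 1 was called higher and 5 lower (median -0.46). The lower genes included 3 of the EH domain ATPases of endosome recycling: Ehd2 at -2.81 ± 0.48, Ehd3 at -1.59 ± 0.19 and Ehd4 at -0.57 ± 0.11. Of 17 Arf and Arl regulators, 6 were called higher and 5 lower (median -0.16). The Arf exchange factor genes Cyth4 and Psd fell by 1.11 and 0.51 on the log2 scale, and Cyth1 rose by 0.64. Of 11 genes of the fusion machinery, 4 were called higher and 3 lower (median -0.17). Lyst, the lysosomal trafficking regulator mutated in Chediak-Higashi syndrome, fell from 268 ± 23.1 to 158 ± 5.54 CPM (-0.76 ± 0.09, edgeR adjusted p = 0.0014). Unc13a, a vesicle priming factor gene, and Esyt2, an extended synaptotagmin gene, rose by 0.84 and 0.46. Unc13b, a relative of Unc13a, went the other way, from 10.7 ± 3.80 to 2.80 ± 1.27 CPM (-1.94 ± 0.43, edgeR adjusted p = 0.0096). Its fall was the largest of the fusion list, and its call held with each library left out. Of 8 genes of ER to Golgi transport 3 were lower and none higher (median -0.23), and of 2 ESCRT genes outside the Vps family 1 was lower (median -0.18). Without WT replicate 1 or 2 the ER to Golgi and ESCRT lists had no call, the Rab regulator list had 3 or 2 higher and no lower, and the lysosome list had 4 or 3 higher and 1 lower. Without WT replicate 1 or 2 the Arf and Arl list had 3 or 2 higher and 4 lower, the endocytosis list no higher and 3 lower, and the fusion list 3 or 2 higher and 2 lower. Without WT replicate 3 the endocytosis list had no higher member, the ESCRT list no call, as without UTX TCD replicate 3, and the lysosome list 1 lower member, likewise in both cases. Leaving out UTX TCD replicate 1, the ER to Golgi list and the fusion list each had 5 lower members, and without UTX TCD replicate 2 the ER to Golgi list had 6 and the lysosome list 4. With gap-centred scaling, lower members numbered 8 in the Arf and Arl list, 7 in the ER to Golgi list, 6 in the fusion list, 5 in the Rab regulator list, 4 in the lysosome list and 2 in the ESCRT list. With upper-quartile scaling they numbered 0 in the Rab regulator and ESCRT lists and 1 in the lysosome list.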

How the data were processed

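The authors deposited raw counts of reads per gene for 6 libraries, made with HISAT2 and HTSeq on mm10 beside FastQC, per the submitters' processing notes. Versions, annotation, strand setting and the rule behind the choice of rows are not stated there. Counts were tested over the whole table with edgeR 4.0.16 in R 4.3.3 (quasi-likelihood F test, genotype as the only term, minimum count 10 and minimum total count 15, TMM), with Benjamini-Hochberg adjustment over 4118 genes. Selection on the genotype difference makes adjusted p-values too small for a whole transcriptome. The filter left out 44 genes and no trafficking gene. Standard errors were derived from each log2 fold change and its F value. The script was tested on simulated data, where it recovered 78.9% of genes changed 2-fold and 4.27% of the genes it called were false. Smaller changes were not simulated. Replicates differed beyond sampling noise (chi-square per degree of freedom 7.09 to 11.7 in WT, 19.9 to 87.7 in UTX TCD). Each library is 1 mouse by the design text.

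The genes and gene lists were chosen with earlier results of these data known. Values are printed for all 57 genes, so the rule for named genes (strongest calls per role that held with each library left out, the 10 largest called rises and falls without overlap at an average log2 CPM of at least 2, a panel of T cell trafficking genes, oppositely called relatives, and up to 3 stable calls per pathway list) decided only which got more detail. The lists' other members are counts, apart from Unc13b and Mcoln1, which are given as relatives of Unc13a and Mcoln2. Gene positions and exon lengths come from GENCODE vM21 (GRCm38), which matched 57 of 57 genes by symbol, and start regions from RefSeq (GRCm38.p6).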

Additional observations from a re-analysis of the deposited data

How the results depend on the processing

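All 57 trafficking genes kept the sign of their log2 fold change in each of 14 alternatives, and no named value reversed. This is a weak check, since the table held few genes near 0 and the smallest change among the 57 was -0.11 (Arcn1). Counting every annotated gene as a test leaves the fold changes as they are. Calls moved more. With each library left out in turn, the number called higher was 9 to 27 and the number called lower 3 to 18, and the median log2 fold change was -0.18 to -0.07. With every one of 21951 annotated protein-coding genes counted as a test, 9 were higher and 2 lower. Those are 15.8% and 3.51% of the set, beside 15.3% and 7.19% of all tested genes. Upper-quartile scaling gave 8 lower genes and gap-centred scaling 24, which are 14% and 42.1% of the set. Of all tested genes 17.6% and 44.1% were called lower in these settings. The shares of all calls that were higher were 70.6% and 46.2%, against 60.4% with TMM. RLE scaling, no low-count filter, DESeq2 1.42.0, limma-voom 3.58.1 and the replicate block stayed within 1.5 times for both counts. The replicate block gave 24 higher and 12 lower genes, losing Ap1ar, Arfgap2, Rab11fip4os1, Rab3a and Tbc1d8 and adding Ap5z1. These counts are 42.1% and 21.1% of the set, beside 39% and 24.9% of all tested genes. Same-numbered libraries deviated with correlations of 0.28, -0.28 and 0.18, and not every library correlated best with its own number. These values gave no sign that the numbers pair the mice, but so few libraries do not settle it. For the 32 trafficking genes picked by the rule for named genes, 73 values under the 14 alternatives lost their call and 4 gained one. The other 371 values kept their status. The rest of the 57 genes are not in these counts. Rab33a, Rab11fip4os1 and other genes under 50 counts a library are limited by counting error.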
